A study of Homo sapiens with 18 samples.

Results

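H19, IGF2, MEG3, DLK1, PEG3, PEG10, MEST, SNRPN, CDKN1C and NNAT are imprinted genes, of which cells normally transcribe only or mainly the copy inherited from one parent. These 10 genes were followed among the 57133 genes counted by RNA-seq in human pluripotent stem cells (PSCs) lacking PCGF6, a subunit of the polycomb repressive complex PRC1.6. The genes were chosen by name, with earlier results of these data known. H19 and IGF2 were picked for their gain in the knockout and H19 also for the difference between its replicate libraries, so these values are given as a description with no test. Of the 10 genes, 8 had enough reads to be tested, while MEG3 and PEG3 were left out by the filter on low values.

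All 6 libraries came from PGP1, an established human induced PSC line, kept undifferentiated. WT cells gave 2 libraries, PCGF6-KO clone 1 gave 2 and PCGF6-KO clone 2 gave 2. Each PCGF6-KO clone is a single colony in which CRISPR-Cas9 with paired guides had removed part of the first exon of PCGF6 from both alleles, and the WT libraries are of the parental line without the deletion. Each clone carries its own deletion, so the clone and the deletion cannot be told apart. Nothing in the labels says that replicate libraries came from separate cultures, and p-values then measure only the spread between these libraries, which may be technical. The fit of PCGF6-KO against WT takes the libraries of both clones as replicates of 1 group. Its p-values thus do not treat the clone as the unit.

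Imprinted genes sit in clusters, and each cluster has an imprinting centre that is methylated on one parental copy and unmethylated on the other. At 11p15, CTCF binds the unmethylated maternal centre between H19 and IGF2, which keeps shared enhancers with H19, and methylation of the paternal centre lets them reach IGF2. H19 is a long noncoding RNA, and IGF2 is a growth factor of the embryo and placenta that acts through the receptor IGF1R. Many imprinted genes tune growth of the embryo and placenta, and loss of imprinting is a known problem of cultured PSCs. The deposited counts do not separate the alleles, so they do not show which parental copy a read came from.

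H19 lies on the reverse strand at chr11:1995166-2004552 of GRCh38 (GENCODE release 44), and its transcript carries the hairpin of miR-675. The mature miRNAs from RefSeq (GRCh38.p14) are shown because they are the products made from H19, with the seed (bases 2 to 8) in capitals. They lie at chr11:1996800-1996822 and chr11:1996768-1996787 and share no seed.
hsa-miR-675-5p: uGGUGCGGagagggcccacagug
hsa-miR-675-3p: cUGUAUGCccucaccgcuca
The gene of the hairpin, MIR675, is listed at 0 counts in all 6 libraries, and mature miRNAs were not measured in these libraries.

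A CTCF motif of 14 letters, 2 of which may be any base, was searched on both strands of chromosome 11 after the data were seen. It had 21 matches on the whole chromosome (135.1 Mb), and 5 of them lay within the annotated span of H19, with starts within 3051 bases of each other. All 5 were on the reverse strand, in no exon of the 31 annotated H19 transcripts, and 155 to 158 kb from the IGF2 start. They are the only matches in the stretch from H19 to IGF2 and are shown for that reason, with the match in capitals and 5 bases on each side.
chr11:1999963-1999986: agtggCCGCGCGGCGGCAGtgcag
chr11:2000775-2000798: agtggCCGCGTGGCGGCAGtgcag
chr11:2002208-2002231: agtggCCGCGCGGCGGCAGtgcag
chr11:2002609-2002632: agtggCCGCGCGGCGGCAGtgcag
chr11:2003014-2003037: agtggCCGCGCGGCGGCAGtgcag
The second differs from the other 4, which are identical over the letters shown. A match is a description of the sequence and not of binding, and each of the 5 also holds the letters TGCCGC of the ZFP57 motif on the opposite strand.

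The authors deposited raw read counts per gene, between 15877396 and 18918609 per library. They are given here as counts or as CPM, counts per 1000000 reads of a library size scaled by the TMM method, and a count of 3 was worth between 0.157 and 0.187 CPM. A gene was called higher or lower when its edgeR quasi-likelihood adjusted p was below 0.05 and its log2 fold change was beyond 0.6 in either direction. The targeted gene had counts of 268 and 300 in the WT libraries, 99 and 103 in those of clone 1 and 187 and 159 in those of clone 2. PCGF6 thus fell in PCGF6-KO (log2 fold change −1.15 ± 0.27 SE, edgeR adjusted p = 0.00914), and it was higher in clone 2 than in clone 1 by 0.90 on the log2 scale (edgeR adjusted p = 5.44e-05). Reads from outside the deleted part of the first exon still count for PCGF6, so these counts do not check the deletion itself.

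Markers of the undifferentiated state were present in all libraries, together with markers of other cell types in PCGF6-KO. POU5F1, the core pluripotency factor, had a log2 fold change of 0.01 ± 0.07 (edgeR adjusted p = 0.907). L1TD1 and LIN28A, RNA-binding proteins of PSCs, stood at −0.40 ± 0.05 (edgeR adjusted p = 0.000538) and −0.29 ± 0.07 (0.0142), both under the fold threshold. Of 8 pluripotency markers 0 were called higher and 1 lower, TERF1 (−1.81 ± 0.08), which was named after its values were seen. These 8 summed to 7591 to 7954 CPM in WT and 6160.2 to 6343 CPM in PCGF6-KO. They do not cover every PSC marker. ZFP42 (REX1), outside this list and given below with imprint maintenance, had 304 and 329 counts in WT and at most 2 in PCGF6-KO. Of 9 mesendoderm markers, 8 were tested and all 8 were higher (14.9% of all tested genes were), and the summed level of the list was 6.77 to 7.06 CPM in WT and 631 to 773 CPM in PCGF6-KO. MIXL1, TBXT and EOMES, transcription factors of the primitive streak, carried most of it. Of 8 markers of stroma and fibroblasts, 7 were higher and THY1, which PSCs also express, was lower, and the sum was 848 to 860.1 CPM in WT and 1752 to 2076 CPM in PCGF6-KO. COL1A1 and COL1A2, chains of type I collagen, rose by 2.44 ± 0.12 and 2.39 ± 0.21 on the log2 scale. In WT, SOX17 and MESP1 of the first list and LUM, DCN and TWIST1 of the second, also named after their values were seen, were at 0 counts. A gene at 0 counts in WT can pass the filter only through PCGF6-KO, so only a higher call is open to it. The same can hold for a gene with few reads in WT. The shares called higher in both lists are thus partly set by the filter. TBXT and EOMES were not tested when 10 counts were asked for in every library. Markers of trophoblast summed to 9.47 to 9.70 CPM in WT and 24.6 to 37.3 CPM in PCGF6-KO, with 2 of 5 tested higher, GATA3 and ERVW-1, and HLA-G lower, while KRT7 and PGF were not called. ERVW-1 and HLA-G, like SERPINA1 below, were named after their values were seen. VGLL1, CGB5, GCM1 and ELF5 had at most 3 counts in every library. Markers of visceral endoderm summed to 7.74 to 8.51 CPM in WT and 8.64 to 12.1 CPM in PCGF6-KO, with 2 of 5 tested higher and 1 lower. Of these, APOA1 and SERPINA1 were higher and AFP was not called, and the lower call of APOB was lost without either WT library (edgeR adjusted p = 0.0725 and 0.186), while TTR and FGB had at most 2 counts in any library. These lists moved with the imprinted genes below, and their part in those results was not tested. In bulk RNA, more cells of a type and more RNA per cell cannot be told apart.

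H19, the noncoding RNA of the cluster, was at the level of single reads in WT and well above it in every PCGF6-KO library. WT had 2 and 3 counts (0.123 and 0.180 CPM), both at or under the level of 3 counts. Clone 1 had 118 counts in replicate 1 and 802 in replicate 2 (6.17 and 44.1 CPM), and clone 2 had 261 and 2630 (14.4 and 164 CPM). The PCGF6-KO libraries did not overlap with WT, and within each clone replicate 2 was the higher library. Over the pooled counts, H19 was 352-fold higher in PCGF6-KO than in WT, with a counting interval of 151 to 1083 (95%, exact binomial). The ratio was 163-fold in clone 1 (69.4 to 502) and 558-fold in clone 2 (239 to 1719). These intervals cover counting error only, and the WT side rests on 5 reads. H19 was chosen for this gain, so the ratios and intervals are no test of it. Against the WT library of the same number, single libraries ran from 50.2-fold to 912-fold. Replicate 2 of clone 2 carried most H19 reads, and without it the fitted log2 fold change was 7.09 in place of 8.48.

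IGF2 lies at chr11:2129112-2158391 on the same strand as H19, and its annotated start is 153.8 kb from that of H19. It had 11 and 20 counts (0.676 and 1.20 CPM) in the WT libraries, 1606 and 1628 (84.0 and 89.6 CPM) in those of clone 1 and 3462 and 3220 in those of clone 2 (191 and 201 CPM). The 3 groups did not overlap, and replicates within each clone lay close together. The ratio to WT was 148-fold over all 4 PCGF6-KO libraries (104 to 217, counting error only), 92.2-fold in clone 1 (64.8 to 136) and 208-fold in clone 2 (146 to 306). Both clones thus had far more IGF2 RNA than WT in these libraries, and the clones share the same WT libraries in these ratios. IGF2 was chosen for this gain, so the ratios and intervals are no test of it.

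**Figure D1:**
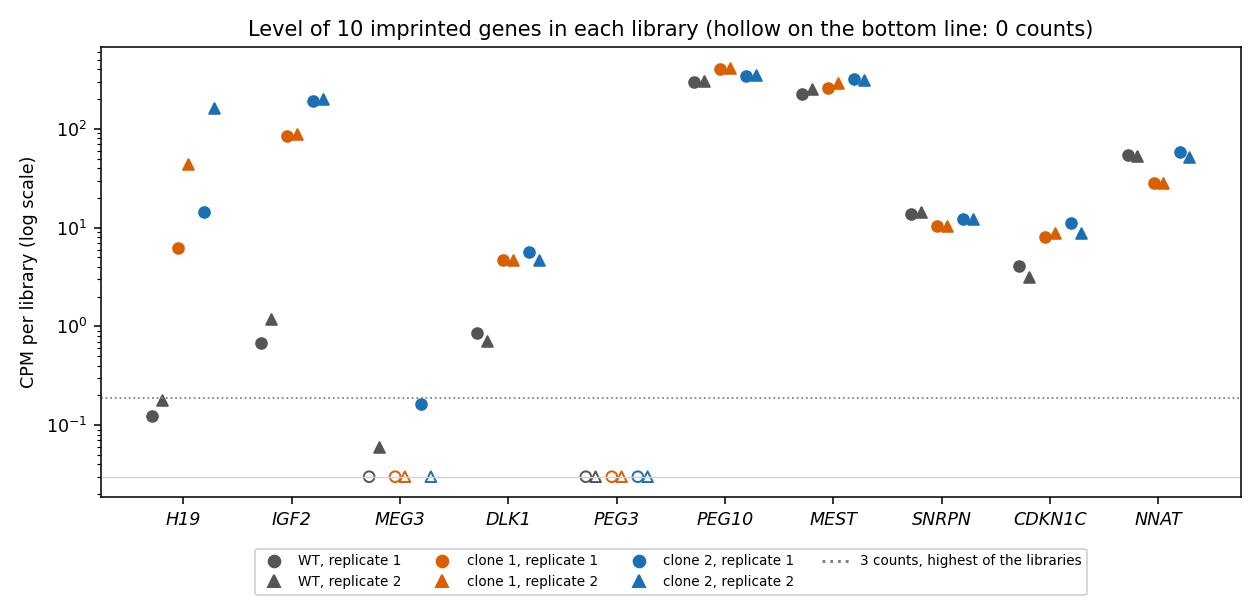
CPM (log axis) of the 10 imprinted genes in each of the 6 libraries, with circles for replicate 1 and triangles for replicate 2 of WT (grey), clone 1 (orange) and clone 2 (blue). Hollow symbols on the bottom line are 0 counts and the dotted line is 3 counts in the library where that is worth most CPM. H19 runs from 0.123 CPM in WT to 164 CPM in clone 2 with a wide gap between replicates, IGF2 is split by group, and PEG3 is at 0 throughout.

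The comparison of the clones with each other does not use the gain over WT, so IGF2 was tested there. Its choice did rest on the same PCGF6-KO libraries, so IGF2 is not an unselected gene in this comparison. IGF2 was higher in clone 2 than in clone 1 by 1.17 ± 0.07 on the log2 scale (edgeR adjusted p = 3.75e-12), or 2.26-fold by mean CPM. Of the 17672 genes tested, 7.87% were called between the clones, 3.73% higher in clone 2 and 4.14% lower. Of the 7 imprinted genes other than H19 that were tested there, IGF2 and NNAT were called, both higher in clone 2. Among the 6 not chosen for their gain, NNAT alone was called. For H19 the mean was 25.1 CPM in clone 1 and 89.2 CPM in clone 2, but the ranges of the clones overlapped, since replicate 1 of clone 2 lay below replicate 2 of clone 1. With replicate 2 of clone 2 left out, the log2 difference of H19 turned from 1.82 to −0.80.

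H19 was chosen for the difference between its replicates, so its size and rank are a description. Replicate 2 had 7.15-fold the CPM of replicate 1 in clone 1 and 11.4-fold in clone 2. On the scale of log2(CPM + 0.5), its difference ranked 2 among 17672 tested genes in clone 1 and 1 in clone 2, and it ranked first in both clones among genes within 2-fold of its mean count (4784 and 3938 genes). In WT, the counts of 2 and 3 are too few to compare. IGF2, beside it, differed between replicates by 1.07-fold in clone 1 and 1.05-fold in clone 2. The median absolute difference over all tested genes was 0.11 for WT, 0.13 for clone 1 and 0.12 for clone 2.

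A difference over 1 on this scale was seen for 58 genes in WT, 46 in clone 1 and 66 in clone 2. Only H19 and PRODH were higher in replicate 2 by more than 1 in both clones, and 0 genes were lower by as much in both. PRODH encodes proline dehydrogenase, the mitochondrial enzyme that begins proline breakdown, lies at chr22:18912777-18936553 on the reverse strand, and was singled out after its values were seen. It had counts of 0 and 2 in the WT libraries, 11 and 63 in those of clone 1 and 6 and 92 in those of clone 2. H19 and PRODH thus had the same order of libraries within each clone. With replicate 1 of each clone alone, the log2 fold change of H19 against both WT libraries was 6.03, and with replicate 2 alone it was 9.36, and H19 was above WT in both.

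Within a library, the ratio of H19 to IGF2 needs no scaling between libraries. Per kb of the gene length deposited with the counts, H19 was at 0.482 and 0.398 of IGF2 in WT, from 2 and 3 reads of H19. The ratio was 0.195 and 1.31 in clone 1 and 0.200 and 2.17 in clone 2. Replicate 1 of both clones thus had about 5 times as much IGF2 as H19 per kb (5.13 and 5.00), and replicate 2 of both clones had more H19 than IGF2. The mean log2 ratio was 0.40 higher in PCGF6-KO than in WT, and without replicate 2 of clone 2 it was 0.24 lower (−0.24), so it has no stable direction.

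The reads of IGF2 and H19 can be shared with other genes. INS-IGF2, a read-through gene on the same strand as IGF2, is listed at 0 counts in all 6 libraries. IGF2-AS, which overlaps IGF2 on the opposite strand, had 0 and 0 counts in the WT libraries, 1 and 8 in those of clone 1 and 7 and 4 in those of clone 2, which is at least 3.08-fold higher in PCGF6-KO against a floor of 3 counts over the WT libraries. The strand setting of the counting is not given in the sources used here, so reads from IGF2 and IGF2-AS cannot be told apart. INS, the insulin gene next to IGF2, was at 0 in every library.

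The genes with the pattern most like that of H19 and of IGF2 were ranked by Pearson r of log2(CPM + 0.5) over the 6 libraries, among 13863 genes whose average log2 CPM was 1 or more. For H19 they were ZNF92 (r = 0.998), POLE4 (r = 0.997) and ANKRD13C (r = 0.996), whose levels differ far less between groups. ZNF92, for example, had 1101 and 1135 counts in WT and between 1349 and 1460 in PCGF6-KO. For IGF2 they were ANXA1, F3 and JAG1, all at r = 1.00. ANXA1, a phospholipid-binding protein, had counts of 31 and 47 in the WT libraries, 1944 and 1935 in those of clone 1 and 3884 and 3405 in those of clone 2. The 6 points fall into a WT and a PCGF6-KO cluster, so r serves only to rank genes.

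DLK1, a Notch-like transmembrane protein that holds back adipocyte differentiation, is the paternally expressed gene of the 14q32 cluster, at chr14:100725705-100738224. It had 14 and 12 counts (0.860 and 0.719 CPM) in the WT libraries, 89 and 85 (4.65 and 4.68 CPM) in those of clone 1 and 103 and 75 in those of clone 2 (5.68 and 4.67 CPM). All PCGF6-KO libraries were above both WT libraries. DLK1 rose by 2.63 ± 0.24 on the log2 scale (edgeR adjusted p = 5.09e-05), or 6.25-fold over the pooled counts (4.19 to 9.69, counting error only). Over all tested genes, the share called in PCGF6-KO against WT was 23.6%, with 14.9% higher and 8.70% lower. Of the 6 imprinted genes tested and not chosen on this contrast, 2 were called, DLK1 and CDKN1C, and both were higher. The difference between the clones was 0.15 on the log2 scale (95% interval −0.24 to 0.55, edgeR adjusted p = 0.646), which did not pass.

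MEG3, the maternally expressed noncoding RNA of the same cluster, lies at chr14:100779410-100861031 on the same strand as DLK1. WT had 0 and 1 counts, clone 1 had none (0 and 0), and clone 2 had 3 and 0. A change in MEG3 was not detectable at this depth. DLK1 was at 52.5 times the level of MEG3 per kb in the WT library with 1 read of MEG3, and at 150.1 times in the clone 2 library with 3 reads. Elsewhere in the cluster, the noncoding RNA MEG8 was at 0 in every library, the retrotransposon-derived gene RTL1 had at most 3 counts in any library, and MEG9 had between 4 and 13 counts and was not called.

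DIO3, at the far end of the DLK1 cluster, inactivates thyroid hormone. It had counts of 0 and 1 in the WT libraries, 44 and 31 in those of clone 1 and 67 and 47 in those of clone 2. Every PCGF6-KO library was above WT, and the log2 fold change of DIO3 was 6.15 ± 0.73. The ratio of pooled counts was 87.2, with a counting interval from 15.5 to 3462. At 0 and 1 counts in WT, DIO3 passed the filter through PCGF6-KO alone. Only a higher call was open to it, and its p-value is left out. DLK1 was thus called higher, and DIO3 too with that limit. MEG3, MEG8 and RTL1 had at most 3 counts in any library and MEG9 was not called.

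CDKN1C (p57KIP2), an inhibitor of cyclin-dependent kinases that restrains growth, is maternally expressed under the second imprinting centre of chromosome 11, at chr11:2883213-2885775. It had 66 and 53 counts (4.05 and 3.18 CPM) in the WT libraries, 155 and 161 (8.11 and 8.86 CPM) in those of clone 1 and 203 and 140 in those of clone 2 (11.2 and 8.73 CPM). All PCGF6-KO libraries lay above WT. CDKN1C rose by 1.35 ± 0.20 on the log2 scale (edgeR adjusted p = 0.000789), or 2.55-fold by mean CPM. The difference between the clones was 0.24 (95% interval −0.08 to 0.56, edgeR adjusted p = 0.321).

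KCNQ1OT1, the noncoding RNA made from that imprinting centre, had counts of 86 and 87 in the WT libraries, 108 and 113 in those of clone 1 and 69 and 79 in those of clone 2, and was not called (log2 fold change −0.03 ± 0.22). The ratio of CDKN1C to KCNQ1OT1 per kb was 28.4 and 22.5 for WT, 53.1 and 52.7 for clone 1 and 109 and 65.6 for clone 2, without overlap between WT and PCGF6-KO. PHLDA2, a regulator of placental growth whose start is 43.6 kb upstream of that of CDKN1C, had 23 and 29 counts in WT and 283 to 405 in PCGF6-KO, and rose by 3.55 ± 0.21 (edgeR adjusted p = 3.18e-06).

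NNAT, neuronatin, is a small membrane protein of the endoplasmic reticulum that is paternally expressed, at chr20:37521206-37523690. It had 889 and 884 counts (54.6 and 53.0 CPM) in the WT libraries, 548 and 512 (28.7 and 28.2 CPM) in those of clone 1 and 1049 and 830 in those of clone 2 (57.9 and 51.7 CPM). Clone 1 lay below WT in both libraries, while clone 2 lay on both sides of WT. NNAT fell in clone 1 by 0.92 on the log2 scale (95% interval −1.10 to −0.74, edgeR adjusted p = 1.52e-09), and in clone 2 the value was 0.03 (−0.14 to 0.20, edgeR adjusted p = 0.802). The clones differed by 0.95 ± 0.09 (edgeR adjusted p = 7.43e-09), with NNAT higher in clone 2. With both clones in 1 group it was not called (−0.37, 95% interval −1.01 to 0.26, edgeR adjusted p = 0.330).

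BLCAP, which overlaps exons of NNAT on the opposite strand, had counts of 1080 and 994 in the WT libraries, 884 and 871 in those of clone 1 and 706 and 625 in those of clone 2. Its log2 fold change was −0.55 ± 0.11, under the fold threshold, as was that of clone 1 (−0.42 ± 0.08), while in clone 2 it was called lower (−0.69 ± 0.08, edgeR adjusted p = 8.80e-08). BLCAP was thus lowest in clone 2, where NNAT was not called, and reads of the overlap cannot be told apart without the strand.

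In clone 1 against WT, 24.8% of tested genes passed (16.0% upward and 8.80% downward), and 3 of the 6 imprinted genes not chosen on the contrast were called (DLK1 and CDKN1C higher, NNAT lower). In clone 2 against WT, 29.4% of genes passed (16.9% upward and 12.5% downward), and 2 of the 6 were called, DLK1 and CDKN1C. DLK1 stood at 2.55 ± 0.28 in clone 1 and 2.71 ± 0.27 in clone 2, and CDKN1C at 1.23 ± 0.18 and 1.47 ± 0.18. Both comparisons use the same WT libraries.

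**Figure D2:**
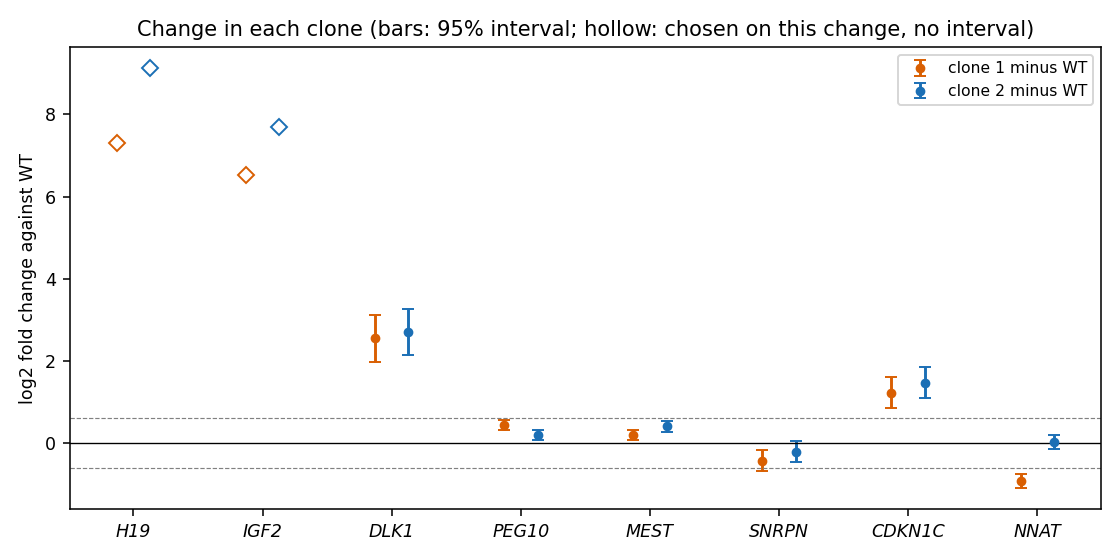
Log2 fold change of each tested imprinted gene against WT in clone 1 (orange) and clone 2 (blue), with 95% intervals from the edgeR fit and dashed lines at 0.6 and −0.6. H19 and IGF2 are hollow diamonds with no interval, because they were chosen on this change. DLK1 and CDKN1C are above 0.6 in both clones and NNAT is at −0.92 in clone 1 and 0.03 in clone 2.

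PEG10 and MEST had the highest mean level per kb of the 10 genes in each group, and their changes were under the fold threshold. PEG10, a retrotransposon-derived gene needed in the placenta, lies at chr7:94656325-94669695. Its level was 299.5 and 303 CPM for WT, 403 and 416 for clone 1 and 341 and 349 for clone 2. The 3 groups did not overlap, but the log2 fold change of 0.33 ± 0.09 (edgeR adjusted p = 0.0205) was under the fold threshold. SGCE, which starts beside PEG10 on the opposite strand and overlaps it, stood at 0.31 ± 0.09.

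MEST, a protein of the hydrolase fold expressed from the paternal copy in the embryo, lies at chr7:130486171-130506465. It had 227 and 251 CPM in the WT libraries, 260.1 and 289 in those of clone 1 and 323 and 313 in those of clone 2. All PCGF6-KO libraries were above WT, again under the fold threshold (0.31 ± 0.09, edgeR adjusted p = 0.0297). Its overlapping neighbour COPG2 stood at −0.30 ± 0.07, also under the threshold. For MESTIT1, the antisense noncoding RNA of MEST, between 2 and 10 counts were found in any library.

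SNRPN, a splicing protein of the 15q11 cluster, lies at chr15:24823637-24978723. It had 13.8 and 14.3 CPM in the WT libraries, 10.4 and 10.5 in those of clone 1 and 12.1 and 12.2 in those of clone 2. All PCGF6-KO libraries were below WT, and the log2 fold change of −0.32 (95% interval −0.59 to −0.04) had an edgeR adjusted p of 0.0734 and was not called. SNRPN shares exons with SNURF and SNHG14 on the same strand, so its count is uncertain. SNURF had 30 and 18 counts in WT and 8 to 14 in PCGF6-KO (−1.30 ± 0.37, edgeR adjusted p = 0.0242), and this call was lost without replicate 1 of WT (edgeR adjusted p = 0.279) and without replicate 1 of clone 2 (0.0502).

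PEG3, a zinc-finger protein at chr19:56810077-56840728, was at 0 counts in all 6 libraries. So were ZIM2, USP29 and MIMT1, the other imprinted genes of its cluster. Counts of 0 allow a level of up to 0.157 to 0.187 CPM per library. PEG3 shares exons with ZIM2 on the same strand, and how reads over several genes were counted is not given in the sources used here, so the 0 of both is uncertain. Around PEG3, 15 genes within 500 kb of its start were tested, of which 1 was called higher (ZNF835) and 1 lower (AURKC), both named after their values were seen. Over all tested genes, 14.9% were called higher and 8.70% lower.

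Libraries of the 2 genotypes did not overlap for 7 of the 8 imprinted genes tested and for 5 of the 6 not chosen on the contrast, NNAT being the exception. This held for 57.1% of all tested genes. In level per kb, the order in WT was MEST (49.9 ± 3.60 CPM per kb, SD, n = 2), PEG10 (45.0 ± 0.341), NNAT (40.4 ± 0.861), SNRPN (4.11 ± 0.117), CDKN1C (1.46 ± 0.250), DLK1 (0.149 ± 0.0187), IGF2 (0.122 ± 0.0481) and H19 (0.0522 ± 0.0139). Of neighbours in this order, only DLK1 and IGF2 had overlapping libraries. In PCGF6-KO (n = 4 libraries of 2 clones), H19 (19.7 ± 25.2) and IGF2 (18.4 ± 8.21) came after MEST (61.8 ± 5.87), PEG10 (56.4 ± 5.62) and NNAT (31.2 ± 11.6) and ahead of CDKN1C (3.72 ± 0.547), SNRPN (3.30 ± 0.290) and DLK1 (0.926 ± 0.0953). There, the libraries of MEST and PEG10, NNAT and H19, H19 and IGF2, and CDKN1C and SNRPN overlapped. The place of H19 depends on the library, since it ran from 2.13 CPM per kb, below every library of CDKN1C and SNRPN, to 56.6 in replicate 2 of clone 2, above PEG10 there (52.2). By mean, IGF2 was ahead of H19 in clone 1 (11.3 ± 0.511 against 8.68 ± 9.26) and behind it in clone 2 (25.5 ± 0.897 against 30.8 ± 36.5).

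The other imprinted genes were taken from a list of 57, of which 41 were tested and 13 had at most 3 counts in every library. Among the 41, PCGF6-KO had 11 called higher and 6 called lower (41.5%, compared with 23.6% of all tested genes), and the median log2 fold change was −0.13, against 0.00 over all tested genes. Some of the 11, such as DIO3, had almost no reads in WT and could only be called higher. Asking for 10 counts in every library left 12 of these calls, 7 higher and 5 lower. Of all genes, 3110 of 14850 were called there. The list was chosen with earlier results of these data known, and several of its genes lie beside one another. Its summed level was 3177 to 3220 CPM in WT and 3136 to 3416 CPM in PCGF6-KO.

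Beside DIO3 and PHLDA2, the largest increases were those of CPA4, DIRAS3, PLAGL1 and CALCR. CPA4, a carboxypeptidase whose start is 193.0 kb from that of MEST, had 0 and 1 counts in the WT libraries, 11 and 26 in those of clone 1 and 50 and 30 in those of clone 2 (54.0-fold, counting interval 9.50 to 2150). DIRAS3, a Ras-related growth suppressor, had 0 and 1 counts in WT and 13 to 18 in PCGF6-KO (29.1-fold, 5.03 to 1166). CPA4 and DIRAS3, like DIO3, passed the filter through PCGF6-KO alone, so only a higher call was open to them. The zinc-finger factor PLAGL1, a known regulator of imprinted genes, had counts of 51 and 36 in the WT libraries, 579 and 535 in those of clone 1 and 683 and 571 in those of clone 2. PLAGL1 rose by 3.65 ± 0.19 on the log2 scale (edgeR adjusted p = 1.71e-06). CALCR, the calcitonin receptor gene, had 19 and 14 counts in the WT libraries, 167 and 181 in those of clone 1 and 98 and 104 in those of clone 2, and rose by 2.92 ± 0.34.

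Among the 6 that fell, INPP5F, a phosphoinositide phosphatase, had counts of 3054 and 3275 in the WT libraries, 737 and 719 in those of clone 1 and 1633 and 1496 in those of clone 2. It fell by 1.56 ± 0.34 on the log2 scale (edgeR adjusted p = 0.00651) and was lower in clone 1 than in clone 2. MAGEL2, a ubiquitin ligase cofactor of the SNRPN cluster, had 228 and 215 counts in WT and 87 to 126 in PCGF6-KO, and fell by 1.09 ± 0.14. ZDBF2, a zinc-finger gene, fell by 1.02 ± 0.11, and PPP1R9A, neurabin, by 0.83 ± 0.10. The call of ATP10A, a phospholipid flippase (−1.05 ± 0.31, edgeR adjusted p = 0.0257), was lost without either WT library, without replicate 1 of clone 1 or without replicate 2 of clone 2, with an edgeR adjusted p between 0.0502 and 0.190, and with a replicate block (0.0511). SNURF, described above, was the sixth.

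**Figure D3:**
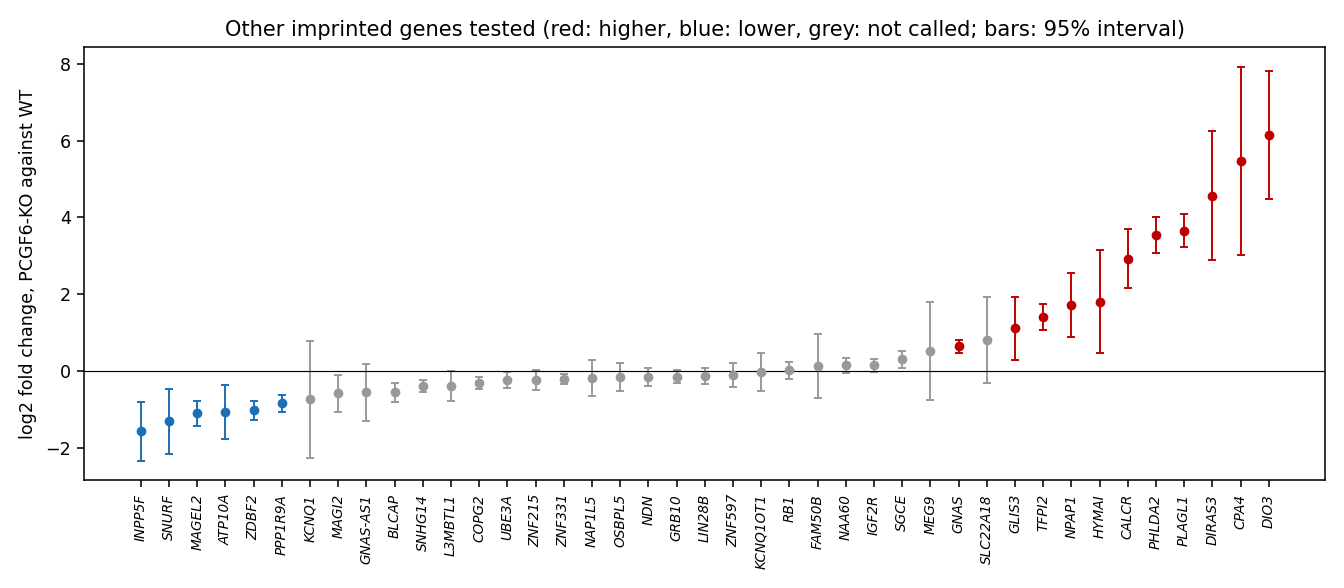
Change in PCGF6-KO against WT (log2 fold change, with its 95% interval) for the 41 other imprinted genes tested, in order of size. The 11 called higher (red) reach 6.15 for DIO3, the 6 called lower (blue) reach −1.56 for INPP5F, and the grey genes were not called.

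Genes around the imprinted genes were counted in windows of 500 kb on each side of each start. Of 60 such genes tested, other than the 10 themselves, 8 were called higher and 7 lower, with a median of 0.01, and 25.0% of them were called against 23.6% of all tested genes. Near H19, 7 genes besides IGF2 were tested, of which 3 were called, all higher, and KCNQ1, TSSC4, RPL26P30 and CTSD were not, with log2 fold changes of −0.73, 0.19, 0.06 and 0.06. MRPL23, a mitochondrial ribosomal protein gene 57.3 kb away, had 24 and 28 counts in WT and 64 to 85 in PCGF6-KO (1.37 ± 0.23, edgeR adjusted p = 0.00156). DUSP8, a phosphatase gene 432 kb away, rose by 3.25 ± 0.32, and CD81, a tetraspanin gene 372 kb away on the IGF2 side that was named after its values were seen, by 1.00 ± 0.11. Near SNRPN, the noncoding RNA PWAR5 had 490 and 511 counts in WT and 151 to 181 in PCGF6-KO and fell by 1.67 ± 0.12 (edgeR adjusted p = 1.27e-05), while NPAP1 rose by 1.72 ± 0.36, a call lost without replicate 1 of WT (edgeR adjusted p = 0.0579). VSTM2L near NNAT fell by 1.97 ± 0.39, and COL1A2 near PEG10 is among the stromal markers given above. Without replicate 1 of WT, 9 neighbours were called in place of 15.

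Methylation of imprinting centres is set in the germ line and then kept by DNMT1, by zinc-finger proteins such as ZFP57 and ZNF445, and by their cofactor TRIM28. Of 24 genes that set, keep or bind imprints, 22 were tested, and 2 were called higher and 3 lower (22.7%, against 23.6% of all tested genes, median −0.05). ZFP42 (REX1), a zinc-finger protein of PSCs, had 304 and 329 counts in WT and at most 2 in PCGF6-KO, and fell by 7.51 on the log2 scale (edgeR adjusted p = 8.20e-08). DNMT3L, a cofactor of de novo methylation in germ cells, had 0 and 2 counts in WT and 52 to 72 in PCGF6-KO (56.7-fold, counting interval 15.5 to 471). DNMT3L passed the filter through PCGF6-KO alone, so only a higher call was open to it. DNMT3B, a de novo methyltransferase, had 3020 ± 91.6 CPM (SD, n = 2) in WT and 1581 ± 33.5 and 1154 ± 6.96 CPM in clones 1 and 2, and fell by 1.14 ± 0.14. DPPA3, a protein that shields the maternal genome from demethylation, had 28 and 25 counts in WT and 6 to 9 in PCGF6-KO, and fell by 1.91 ± 0.33. NLRP7, a maternal-effect gene, had 19 and 26 counts in WT and 47 to 113 in PCGF6-KO (1.70 ± 0.39, edgeR adjusted p = 0.00894), a call lost without either WT library (0.0899 and 0.0512). DNMT1, TRIM28, ZFP57, ZNF445 and CTCF were not called, with log2 fold changes of −0.10, −0.05, 0.71, 0.19 and −0.07.

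Of 18 receptors and mediators of IGF2, 17 were tested, and 7 were called higher and 1 lower (47.1%, against 23.6% of all tested genes, median 0.31 against 0.00). This list too was chosen with earlier results of these data known, so the share is a description. The receptors themselves were not called: IGF1R stood at 0.31 ± 0.10, IGF2R, which clears IGF2 from the surface, at 0.16 ± 0.07, and INSR at −0.14 ± 0.11. PAPPA, a protease that frees IGFs from a binding protein, had 9 and 6 counts in the WT libraries, 228 and 199 in those of clone 1 and 286 and 290 in those of clone 2, a ratio of 30.8 over the pooled counts (18.6 to 55.3). Under 10 counts in both WT libraries, PAPPA passed the filter through PCGF6-KO alone, so only a higher call was open to it. GRB14, an adaptor that dampens receptor signalling, rose from 11.8 ± 0.333 CPM (SD, n = 2) to 33.3 ± 2.63 CPM (SD, n = 4). PIK3R1, the regulatory subunit of PI3-kinase, rose by 1.40 ± 0.08, and the receptor substrates IRS4 and IRS2 by 1.03 ± 0.14 and 0.83 ± 0.14. FOXO1, a transcription factor that insulin and IGF signalling holds out of the nucleus, had 1410 and 1527 counts in WT and 631 to 763 in PCGF6-KO, and fell by 1.22 ± 0.09 (edgeR adjusted p = 1.16e-05). IGF1, the other IGF, had at most 3 counts in any library.

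RefSeq promoter windows (250 bases before to 50 after a start, GRCh38.p14) were given for H19, MEG3, MEST and SNRPN, 13 windows in all. They were searched on both strands for CACGTG (bound by MAX of PRC1.6), GCGGGAA (E2F6), the same CTCF motif and TGCCGC (ZFP57), the last 2 of which can overlap. The first 3 motifs had 0 matches in these windows, and 7.26, 6.55 and 0.0655% of all 35116 windows hold them. TGCCGC was found in 3 of 3 windows of MEG3, 4 of 5 of MEST, 2 of 4 of SNRPN and 0 of 1 of H19, against 16.7% of all windows. The H19 window, chr11:2001217-2001516, lies among the 5 CTCF matches shown above and not at the annotated H19 start. Windows of one gene can overlap. All MEG3 windows hold the same site, within chr14:100825915-100825944, and windows of MEST share sites too, so these windows are not separate sites. The absence of these letters says only that they are not in the window.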

How the data were processed

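RNA-seq of WT PGP1 (2 libraries), PCGF6-KO clone 1 (2) and clone 2 (2) was used. The 12 ChIP-seq samples were not analysed here. The authors trimmed reads with Trim Galore (0.6.2), aligned them to GRCh38 with HISAT2 (2.1.0) and counted them with featureCounts, and deposited raw counts per gene beside the gene length. Annotation release, strand setting and treatment of multi-mapped reads are not given in the sources used here.

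The 10 members and all lists were chosen with earlier results of these data known. Genes were filtered with filterByExpr on genotype (17672 of 57133 tested), scaled by TMM and tested with glmQLFit and glmQLFTest of edgeR (4.0.16, limma 3.58.1, R 4.3.3). PCGF6-KO was compared with WT, and a fit with 3 groups compared each clone with WT and the clones with each other. A call needed a Benjamini-Hochberg adjusted p under 0.05 over all tested genes and a log2 fold change beyond 0.6 in either direction. The common biological coefficient of variation was 0.120, and the chi-square per degree of freedom between replicates was 2.40 (WT), 4.50 (clone 1) and 3.20 (clone 2), so no pair was counted as 1 library. Values after ± are standard errors of log2 fold changes unless named SD. Intervals of pooled counts are exact binomial at 95% and cover counting error only. Fits were tested on simulated counts.

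Alternatives were RLE and upper-quartile scaling, DESeq2 (1.42.0), no filter, at least 10 counts in every library, a replicate block, the adjusted p alone and leaving out each library. Using only replicate 1 or only replicate 2 of the clones, the CTCF search and PRODH were added after the data were seen.

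Named were the 10 genes, PCGF6, of other imprinted genes the 6 called with the largest increase and 6 with the largest decrease, of imprint maintenance and of IGF signalling the 6 called with the largest change, the 3 marker genes of each list with the most counts, at most 8 called neighbours, and the 3 genes most like H19 and IGF2. Genes named beyond this rule are at 0 or few counts, uncalled, overlap a member or are said to be named afterwards. Symbols of 36219 genes were found in GENCODE release 44, which gave positions (Python 3.11.15, pandas 2.3.3, scipy 1.17.1).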

Additional observations from a re-analysis of the deposited data

Results flagged for a closer look

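In several genes the clones differed from each other by the edgeR test of clone 2 against clone 1. On the log2 scale the difference was 1.17 for IGF2 and 0.95 for NNAT among the genes described first. Of the other imprinted genes it was 1.22 for CPA4, −0.66 for CALCR, 1.23 for INPP5F and −0.79 for NPAP1, and for the imprint gene NLRP7 it was −0.96. Of the marker genes it was 0.75 for TBXT, 0.99 for AFP, 0.79 for GATA3 and −0.98 for KRT7. For DUSP8, a neighbour of H19, it was 0.71, and for PCGF6 itself it was 0.90. A positive value means more RNA in clone 2.

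In 3 genes, 1 of the 4 PCGF6-KO libraries lay far from the other 3, by Dixon's ratio of the gap to the whole range. For MEG3 the ratio was 1.00, from counts of 0, 0, 3 and 0. For DLK1 it was 0.980, from counts of 89, 85, 103 and 75, with replicate 1 of clone 2 at 5.68 CPM and the others between 4.65 and 4.68 CPM. That ratio is high because the others lie so close together, and the gap itself is small in counts. For ZFP42 it was 0.881, from counts of 2, 2, 2 and 1. Chance alone flags about 1 in 20 groups, and MEG3 and ZFP42 are at the level of single reads here.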

How the results depend on the processing

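DLK1 and CDKN1C were the calls among the 6 genes in PCGF6-KO against WT under all scalings, filters, tools and left-out libraries tried. The adjusted p alone, by its construction, added calls: 4 in place of 2 in PCGF6-KO, 6 in place of 3 in clone 1, 4 in place of 2 in clone 2, 4 in place of 2 between the clones, and 9 in place of 5 for imprint maintenance. Asking for 10 counts in every library left 2 of these 5, because ZFP42, DNMT3L and DPPA3 were then not tested. That filter also left 12 of 17 calls for the other imprinted genes, 7 of 8 for IGF signalling and 11 of 15 for neighbours. Leaving out 1 library gave 12 to 17 calls for the other imprinted genes, 4 to 5 for imprint maintenance, 6 to 8 for IGF signalling and 9 to 15 for neighbours, 9 being without replicate 1 of WT. Without replicate 2 of clone 2, H19 against WT was 7.09 in place of 8.48, H19 in clone 2 against clone 1 turned to −0.80 (range −0.80 to 3.83), and the H19 to IGF2 log2 ratio to −0.24 (range −0.24 to 0.92). The cause was not tested.

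Whether replicate numbers pair the libraries is not settled: over 14850 genes, deviations of same-numbered libraries had a Pearson r of 0.05, 0.07 and 0.15 and a Spearman rho of 0.12, 0.11 and 0.24, and the labels do not say what a number marks. With a replicate block, 3876 genes were called in place of 4167, the count among the 6 genes stayed at 2 and of the named genes only ATP10A lost its call in PCGF6-KO against WT. DESeq2 called 13 of the other imprinted genes in place of 17, without ATP10A and SNURF. The median log2 fold change of all genes was −0.03 under upper-quartile scaling and 0.10 over the 34055 genes DESeq2 took. MEG3 and the WT levels of H19 and IGF2 are limited by depth, and PEG3 by depth and by its overlap with ZIM2.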
